A study of Mus musculus with 6 samples.

Results

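The 39 Hox genes were the rows of the deposited count table, out of 24197 genes, whose symbol was Hox followed by a cluster letter and a paralog number. They comprised 11 Hoxa, 10 Hoxb, 9 Hoxc and 9 Hoxd genes, which lie on mouse chromosomes 6, 11, 15 and 2. Expression was measured by polyadenylated RNA sequencing of stromal-vascular cells, the mixed non-adipocyte fraction, taken from inguinal adipose tissue of C57BL/6 mice. The cells received either a control retrovirus labelled puro (3 libraries) or a retrovirus carrying Prdm16 (3 libraries), and both groups were kept in standard growth medium. Prdm16 encodes a zinc finger protein that drives brown and beige fat gene expression. The labels give neither the age nor the sex of the mice, nor whether the 3 libraries of a group came from separate cultures or animals, so p-values reflect only how far these libraries differ, which may be technical variation. The virus adds Prdm16 to a mixed cell population, and the promoter that drives it is not stated in the labels.

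Hox genes encode homeodomain transcription factors. In each cluster the genes stand in a row from paralog group 1 to 13, and the order along the chromosome follows the order in which they are switched on along the body axis, from head to tail. Members of 1 paralog group in different clusters derive from the same ancestral gene and resemble each other most. In adult connective tissue and fat the set of active Hox genes differs between body sites, and cells often keep their set in culture. Polycomb proteins hold silent parts of a cluster in a repressed state, trithorax proteins keep active parts open, and retinoic acid is a known inducer of the low-numbered genes.

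Library totals ranged from 28169059 to 35798201 counts, of which 14998 to 21161 fell on Hox genes. Prdm16 itself held 14, 22 and 25 counts in the puro libraries and 98437, 72525 and 89054 in the Prdm16 libraries, in accord with the labels. Levels are given as CPM, a count scaled to a fixed library total, after scaling by the trimmed mean of M values, and the smallest level taken as detectable, 3 counts in a library, was 0.0852 to 0.104 CPM. Cell type markers moved with the groups, and their part in the Hox results was not tested. Their calls stand beside a background, by the test given below, of 37.5% of all tested genes higher and 38.0% lower. Of 8 tested fibroblast and progenitor markers 6 fell and 1 rose (summed 6000 to 6810 CPM in puro and 1660 to 1780 CPM in Prdm16 libraries), whereas the progenitor receptor Pdgfra did not pass the test, at 199 ± 9.57 and 188 ± 6.64 CPM (SD, n = 3). All 3 tested adipocyte markers rose (104 to 122 against 517 to 616 CPM). Most of that sum was Fabp4 (means of 115 and 551 CPM), while Plin1, not tested, held 10 and 9 counts. The other tested markers of this list, Adipoq and Cidec, had enough counts for a test only through the Prdm16 libraries. Their calls are therefore no separate support for a rise. All 5 tested pericyte and smooth muscle markers fell (263 to 320 against 34.9 to 45.9 CPM). Epithelial markers summed to 0.315 to 0.447 CPM in puro and 33.3 to 35.6 CPM in Prdm16 libraries, with all 5 tested higher, while Krt5, Krt8 and Krt14 had at most 4 counts in either group. These 5 had enough counts for a test only through the Prdm16 libraries, so they had to differ and their calls are no separate support. Mesothelial markers summed to 7.06 to 7.45 and 89.6 to 95.0 CPM, with Msln higher and Wt1 lower. The remaining lists were small: leukocyte markers summed to 5.0 to 6.28 and 4.73 to 4.94 CPM (Emr1 and Cd3e at 0), endothelial markers to 3.29 to 3.78 and 9.32 to 12.2 CPM (Tek higher, Vwf lower, Kdr not passing, and Cdh5 and Cldn5 at 0) and Schwann cell markers to 4.90 to 5.55 and 2.55 to 2.90 CPM (Sox10 at 0). Skeletal muscle markers reached at most 0.30 CPM, with Myod1, Myf5, Myog and Ckm at 0. Thy1, Rgs5, Vwf and Wt1, of the fibroblast, pericyte, endothelial and mesothelial lists, had enough counts for a test only through the puro libraries. Their falls are likewise no separate support. In bulk RNA, fewer cells of a type and less RNA per cell cannot be told apart.

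The direction of change differed between the Hox clusters. Of the 39 genes, 30 had enough counts to be tested, 12 rose and 12 fell with Prdm16 at an adjusted p below 0.05 (edgeR quasi-likelihood test, Benjamini-Hochberg over all 13805 tested genes), and 6 did not pass. These shares, 40.0% in each direction, were close to the background, since 37.5% of all tested genes rose and 38.0% fell. Among the 9 tested Hoxa genes 8 rose and none fell, and all 3 tested Hoxd genes rose. Among the 9 tested Hoxc genes 7 fell and none rose, and among the 9 tested Hoxb genes 5 fell, 1 rose and 3 did not pass. A change of at least 2-fold was found upward for 9 of the 30 genes (30.0%, background 9.69%) and downward for 6 (20.0%, background 12.1%). For 23 of the 30 genes (76.7%) the CPM values of the groups did not overlap, a share near the background of 77.6%. The median log2 fold change was 1.14 for Hoxa, −0.22 for Hoxb, −1.48 for Hoxc and 4.78 for the 3 Hoxd genes, against −0.01 for all tested genes. Hoxd4 and Hoxd9 passed the count filter only through the Prdm16 libraries, and Hoxc11 and Hoxc12 only through the puro libraries. Such genes had to differ, so their calls are no separate support, and these counts and medians describe the tested genes and not all 39.

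**Figure D1:**
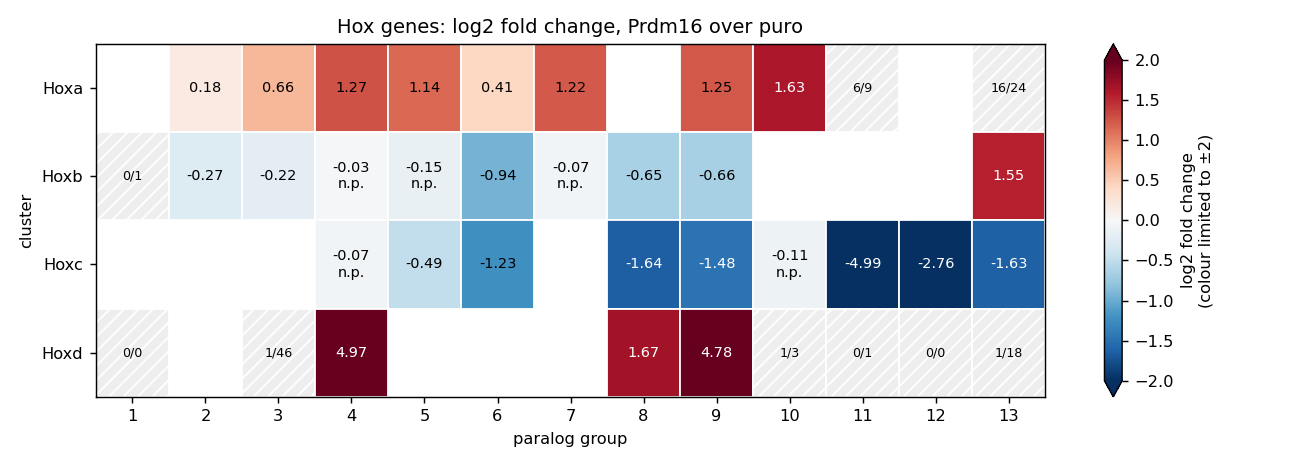
Log2 fold change of Prdm16 over puro for each Hox gene, with clusters as rows and paralog groups as columns. Colours are limited to ±2, n.p. marks tested genes that did not pass the adjusted p threshold, hatched cells give summed counts (puro/Prdm16) of untested genes, and white cells are positions with no gene or not shown. The Hoxa row is red from paralog 2 to 10, and the Hoxc row is blue with Hoxc4 and Hoxc10 near 0.

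Promoter sequence is shown for the 3 risen genes with the smallest p among those with a RefSeq window, and for Hoxb8, the fallen gene that had one. Windows run from 250 bases before to 50 bases after the annotated start on build GRCm38.p6, are written 5′ to 3′ on the gene's strand, and were found for 22 of the 39 genes (24 windows). Capitals mark a match, on either strand, to a motif that was searched for. Hoxa10 had no match in its window at chr6:52240805-52241104 (minus strand, 1 of 2 starts). Hoxa5, at chr6:52204538-52204837 (minus strand), and Hoxd4, at chr2:74721728-74722027 (plus strand), each held AGGTCA, a core recognition site of many nuclear receptors. Hoxb8, at chr11:96281655-96281954 (plus strand), held TGATNNAT, the composite site of Hox and Pbx proteins.
Hoxa10: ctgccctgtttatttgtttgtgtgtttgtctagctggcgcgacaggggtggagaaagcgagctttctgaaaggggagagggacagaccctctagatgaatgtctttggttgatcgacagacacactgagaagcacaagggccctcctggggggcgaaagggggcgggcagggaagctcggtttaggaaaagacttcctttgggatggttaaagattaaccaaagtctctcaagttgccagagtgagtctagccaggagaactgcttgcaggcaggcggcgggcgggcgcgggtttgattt
Hoxa5: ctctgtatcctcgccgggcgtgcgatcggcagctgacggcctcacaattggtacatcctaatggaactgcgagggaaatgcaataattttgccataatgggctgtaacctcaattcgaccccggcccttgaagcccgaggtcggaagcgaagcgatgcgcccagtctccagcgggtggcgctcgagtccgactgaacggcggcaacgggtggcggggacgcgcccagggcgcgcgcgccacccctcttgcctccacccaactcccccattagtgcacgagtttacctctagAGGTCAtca
Hoxd4: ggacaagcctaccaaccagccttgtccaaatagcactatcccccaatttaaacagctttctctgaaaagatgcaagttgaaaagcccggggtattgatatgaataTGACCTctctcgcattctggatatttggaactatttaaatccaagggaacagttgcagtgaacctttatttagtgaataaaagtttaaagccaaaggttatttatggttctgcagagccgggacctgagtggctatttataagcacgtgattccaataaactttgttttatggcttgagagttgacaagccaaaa
Hoxb8: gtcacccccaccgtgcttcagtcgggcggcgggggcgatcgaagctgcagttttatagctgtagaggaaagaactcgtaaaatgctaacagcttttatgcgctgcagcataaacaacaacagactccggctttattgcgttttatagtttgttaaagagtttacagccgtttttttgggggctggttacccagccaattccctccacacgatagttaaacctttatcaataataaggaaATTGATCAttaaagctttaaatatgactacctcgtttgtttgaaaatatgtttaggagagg
The base content of these windows differed widely: Hoxa5 had 29 CpG dinucleotides and 61.7% G and C, while Hoxd4 had 4 and 39.7%. Over the 24 Hox windows the median was 14.5 CpG and 57.7% G and C, against 7.0 and 52.7% over 32851 windows of all genes.

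Matches were counted on both strands for 4 motifs, and a match is a description of the letters only. AGGTCA was found in 7 of the 24 Hox windows (29.2%, against 16.3% of all windows), those of Hoxa5, Hoxb4, Hoxc4, Hoxd3, Hoxd4, Hoxd8 and Hoxd10. Of these genes 3 rose, 2 did not pass and 2 were not tested. Most Hox windows were of Hoxa and Hoxd genes, and Hoxb8 was the only fallen gene with a window. Matches in fallen genes could therefore hardly be seen. TGATNNAT was found in 4 windows (16.7%, against 8.85%), those of Hoxa2, Hoxb1, Hoxb8 and Hoxd11. TGACAG, the site of Meis and Pknox proteins, was found in the windows of Hoxa2 and Hoxa3 (8.33%, against 19.2%), and TAATTA, a homeodomain core site, in both windows of Hoxd11 (8.33%, against 5.29%). The tested genes with a match therefore included genes that rose, fell and did not pass.

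The summed output of Hoxa, on chromosome 6, was higher with Prdm16. The 11 genes together held 124, 121 and 130 CPM in the puro libraries and 260, 242 and 248 CPM in the Prdm16 libraries, a ratio of means of 2.0. The groups lay far apart, and every tested gene from Hoxa2 to Hoxa10 was higher.

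The low-numbered Hoxa genes pattern the hindbrain and pharyngeal arches. Hoxa2, a selector gene of the second pharyngeal arch, went from 14.3, 15.4 and 14.96 CPM to 17.4, 16.7 and 16.6 CPM, which did not overlap (0.18 ± 0.06, adjusted p = 0.0162). This small rise was not called by DESeq2 (adjusted p = 0.0503) or without puro replicate 1 (adjusted p = 0.0647). Hoxa3, needed for the thymus and parathyroid, rose from 20.6, 20.3 and 25.1 CPM to 37.8, 33.1 and 33.8 CPM (0.66 ± 0.08, adjusted p = 2.62e-05).

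Central Hoxa genes rose more, with Hoxa6 as the exception. Hoxa4, a gene of cervical patterning, went from 4.68, 4.36 and 3.87 CPM to 10.2, 10.3 and 10.6 CPM (1.27 ± 0.09, adjusted p = 1.98e-07). Hoxa5, which patterns the neck and lung and is active in adult fat, went from 30.8, 29.9 and 29.1 CPM to 68.2, 64.9 and 64.6 CPM (1.14 ± 0.04, adjusted p = 9.39e-10). The 3 libraries of each group were tightly spaced for both genes. Hoxa6, their neighbour, went only from 9.97, 9.83 and 10.6 CPM to 14.4, 12.2 and 13.7 CPM (0.41 ± 0.08, adjusted p = 7.07e-04). Hoxa7 went from 16.0, 16.2 and 20.5 CPM to 46.5, 36.0 and 40.2 CPM (1.22 ± 0.11, adjusted p = 1.3e-06), with the largest SD of the cluster among Prdm16 libraries, 5.29 CPM. Its exons overlap those of the antisense gene Hoxaas3 and the RefSeq span of Mira, as given below, and the sources used here do not state whether counting used strand.

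High-numbered Hoxa genes pattern the lumbar region, limb and urogenital tract. Hoxa9, also known from myeloid leukaemia, rose from 15.1, 13.9 and 14.6 CPM to 33.0, 35.6 and 35.0 CPM (1.25 ± 0.06, adjusted p = 4.29e-09). Hoxa10, a uterine and lumbar patterning gene, rose from 10.7, 9.86 and 10.01 CPM to 30.6, 31.8 and 32.2 CPM. Its change, 1.63 ± 0.06 or 3.09-fold, was the largest of the cluster (adjusted p = 6.12e-10), and the lowest Prdm16 library lay well above the highest puro library. Beyond Hoxa10 the cluster was nearly silent. Hoxa11 held 6 counts in the 3 puro libraries together and 9 in the 3 Prdm16 libraries (ratio 1.53, 95% counting interval 0.486 to 5.22), and Hoxa13, a gene of the digits, held 16 and 24 (1.53, 0.779 to 3.08). Neither ratio can be told from no change at this depth. Such intervals are exact binomial and cover counting error only. By zone, summed CPM was 2.11-fold higher for Hoxa4 to Hoxa7 and 2.66-fold higher for Hoxa9 to Hoxa13, sums that carry no test of their own.

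Hoxd, on chromosome 2, was the least abundant cluster, and part of its genes were near silence in puro libraries. Summed output was 3.48, 3.76 and 3.46 CPM in puro and 18.9, 18.5 and 17.0 CPM in Prdm16 libraries, 5.09-fold higher, and 3 of the 9 genes could be tested. Hoxd8 supplied nearly all of the puro level. It went from 3.32, 3.47 and 3.16 CPM to 11, 10.7 and 10.01 CPM (log2 fold change 1.67 ± 0.09, adjusted p = 1.8e-08).

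Hoxd4, a cervical patterning gene, held 15 counts in all puro libraries together and 471 in the Prdm16 libraries. In CPM the puro libraries held 0.0968, 0.143 and 0.209 and the Prdm16 libraries 4.91, 5.11 and 4.49, a 31.3-fold rise (4.97 ± 0.21, adjusted p = 2.56e-09). Hoxd9, which acts in the limb and lumbar region, held 7 and 198 counts. Its puro libraries held 0.0645, 0.0860 and 0.0596 CPM, at or below the floor of 3 counts, and its Prdm16 libraries 2.13, 2.14 and 1.83 CPM (4.78 ± 0.28, adjusted p = 3.77e-08). A rise from a handful of reads thus stood behind the largest upward folds of the family. Hoxd4 and Hoxd9 passed the count filter only through the Prdm16 libraries, so their adjusted p is no separate support for a rise.

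The other Hoxd genes stayed below 1 CPM and were described by counts. Hoxd3 went from 1 to 46 counts (ratio 46.9, 95% counting interval 8.01 to 1890) and Hoxd13, a gene of the digits and genital tubercle, from 1 to 18 (18.4, 2.90 to 765). Per library, Hoxd3 reached 0.625, 0.276 and 0.479 CPM and Hoxd13 0.199, 0.242 and 0.120 CPM with Prdm16, and every puro library lay lower. Exons of Hoxd3 share 10.7% of their bases with the antisense gene Hoxd3os1, which went from 1 to 10 counts (ratio 10.2, 1.45 to 442). Hoxd10 held 1 and 3 counts and Hoxd11 held 0 and 1, while Hoxd1 and Hoxd12 had no count in any library. Reads were therefore not spread over the cluster: Hoxd3, Hoxd4, Hoxd8 and Hoxd9 gained them, while the genes at both ends, other than Hoxd13, stayed at 3 counts or fewer.

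**Figure D2:**
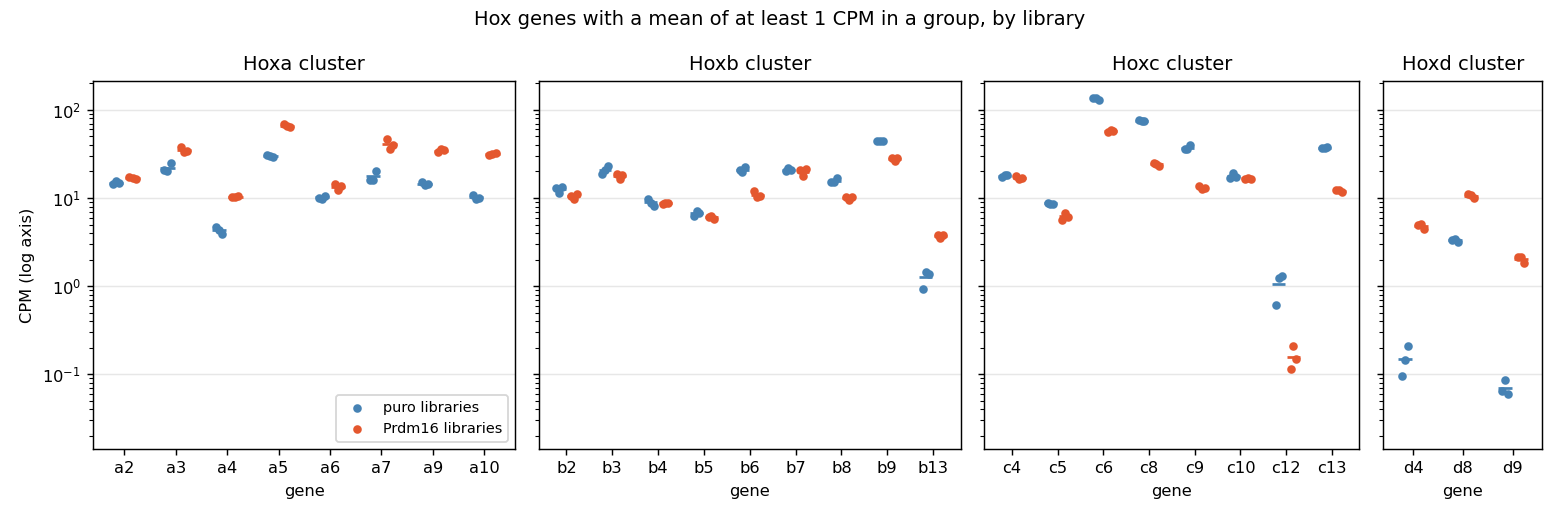
CPM on a log axis for the Hox genes with a group mean of at least 1 CPM, 1 panel per cluster, with a point per library and a short line at the mean of 3. Puro libraries are blue and Prdm16 libraries orange. The groups separate upward along Hoxa and Hoxd and downward along Hoxc, and overlap at Hoxc4 and Hoxc10.

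Hoxc, on chromosome 15, had the largest loss of summed output. The 9 genes summed to 330, 331 and 330 CPM in puro and 147, 149 and 145 CPM in Prdm16 libraries, a ratio of 0.445 in which the 3 libraries of each group hardly differed. All 9 genes were tested and 6 of them fell at least 2-fold (66.7%, background 12.1%).

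At the start of the cluster the change was small. Hoxc4 held 17.3, 18.1 and 18.1 CPM in puro and 17.7, 16.4 and 16.9 CPM in Prdm16 libraries, which overlapped (log2 fold change −0.07 ± 0.06, adjusted p = 0.295). Hoxc5 went from 8.87, 8.51 and 8.64 CPM to 5.57, 6.84 and 6.14 CPM (−0.49 ± 0.09, adjusted p = 4.91e-04). Both act in the neck and upper trunk.

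The thoracic genes Hoxc6, Hoxc8 and Hoxc9 fell strongly. Hoxc8 and Hoxc9 are widely used as markers that set subcutaneous white fat apart from interscapular brown fat. Hoxc6 went from 137, 135 and 131 CPM to 56.2, 58.6 and 57.7 CPM, a 2.34-fold fall (−1.23 ± 0.04, adjusted p = 2.25e-10). Hoxc8 went from 75.8, 75.7 and 75.5 CPM to 25.3, 24.2 and 23.2 CPM, a 3.12-fold fall and the smallest p of the family (adjusted p = 4.97e-11). Hoxc9 went from 35.8, 35.5 and 39.4 CPM to 13.8, 12.7 and 13 CPM (−1.48 ± 0.06, adjusted p = 2.25e-09). In each of the 3 genes the highest Prdm16 library held less than the lowest puro library.

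Hoxc10 broke this run. It is a gene of the lumbar region and hindlimb, and it held 17.0, 19.1 and 17.5 CPM in puro and 16.3, 17.1 and 16.6 CPM in Prdm16 libraries (−0.11 ± 0.06, adjusted p = 0.154). The groups overlapped, between Hoxc9 on one side and falling genes on the other. Hoxc13, which controls hair and nail keratins, went from 37.0, 37.4 and 37.8 CPM to 12.3, 12.4 and 11.7 CPM (−1.63 ± 0.05, adjusted p = 2.29e-10).

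Hoxc11 and Hoxc12 were low in both groups and fell further. Hoxc12 went from 106 counts over the puro group to 15 (0.613, 1.23 and 1.31 CPM against 0.114, 0.207 and 0.150 CPM), a count ratio of 6.93 (95% counting interval 4.02 to 12.8) and a log2 fold change of −2.76 ± 0.40 (adjusted p = 8.21e-05). Hoxc11 went from 44 counts to 1, found in Prdm16 replicate 1, a ratio of 43.2 (7.35 to 1740). Its fitted log2 fold change of −4.99 ± 0.71 (adjusted p = 6.66e-05) reached −6.85 when that library was left out and the other Prdm16 libraries had no count. The direction was the same in all fits that tested it, and the size of this fall was poorly fixed. Hoxc11 and Hoxc12 passed the count filter only through the puro libraries, so their adjusted p is no separate support for a fall.

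Hoxb, on chromosome 11, was lower as a sum, and its genes did not all change alike. The 10 genes held 148, 151 and 157 CPM in puro and 119, 109 and 118 CPM in Prdm16 libraries, a ratio of 0.760 with no overlap. All 5 falls were below 2-fold.

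Of the low-numbered genes, Hoxb1, a hindbrain gene, had a single count in 1 Prdm16 library. Hoxb2 went from 12.8, 11.5 and 13.5 CPM to 10.5, 9.78 and 11.1 CPM (log2 fold change −0.27 ± 0.08, adjusted p = 0.0117). Hoxb3 held 18.5, 20.8 and 23.0 CPM in puro and 18.8, 16.5 and 18.3 CPM in Prdm16 libraries. These values overlapped, and the fall (−0.22 ± 0.08, adjusted p = 0.0349) was lost without puro replicate 2 or 3 or Prdm16 replicate 2 or 3, with adjusted p of 0.0727, 0.127, 0.127 and 0.0679.

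Hoxb4, known from blood stem cells, held 9.84, 8.89 and 8.08 CPM in puro and 8.61, 8.84 and 8.81 CPM in Prdm16 libraries (adjusted p = 0.778). Hoxb5 held 6.19, 7.11 and 6.79 CPM and 6.02, 6.25 and 5.84 CPM (−0.15 ± 0.09, adjusted p = 0.141), and Hoxb7 held 20.2, 22.0 and 20.6 CPM and 20.6, 17.8 and 21.3 CPM (adjusted p = 0.389). All 3 overlapped between groups. Between them, Hoxb6 fell from 20.9, 19.7 and 22.3 CPM to 11.9, 10.3 and 10.5 CPM, the strongest fall of the cluster (−0.94 ± 0.08, adjusted p = 6.44e-07). Directly adjacent Hox genes thus differed in their call.

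Hoxb8, which acts in the nervous system and in blood-derived cells, went from 15.3, 14.99 and 16.9 CPM to 10.4, 9.46 and 10.2 CPM (−0.65 ± 0.07, adjusted p = 1.06e-05). Hoxb9, a thoracic patterning gene, went from 43.8, 44.3 and 44.5 CPM to 28.8, 26.3 and 28.7 CPM (−0.66 ± 0.05, adjusted p = 2.6e-07). Hoxb13 went the other way. This gene, known from the prostate and tail and set apart from the rest of its cluster, rose from 0.935, 1.46 and 1.37 CPM to 3.83, 3.49 and 3.77 CPM (1.55 ± 0.16, adjusted p = 4.73e-06).

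Summed over all 39 genes, Hox output was 606, 607 and 621 CPM in puro and 545, 518 and 529 CPM in Prdm16 libraries, a ratio of 0.869. As a ratio, the total thus moved less than the sum of any single cluster (2.0 for Hoxa, 0.760 for Hoxb, 0.445 for Hoxc and 5.09 for Hoxd). Hoxa made up 19.9% to 21.0% of it in puro and 46.8% to 47.6% in Prdm16 libraries, and Hoxc went from between 53.1% and 54.6% to between 27% and 28.7%. Hoxb changed from 24.5% to 25.3% down to 21.0% to 22.4%, and Hoxd from 0.557% to 0.619% up to 3.20% to 3.58%. Divided by exon length, which is taken from GENCODE and puts long and short genes on the same footing, the Hoxa share went from 19.6% to 20.6% up to 45.3% to 46.4% and the Hoxc share from 55.8% to 57.2% down to 29.2% to 31.2%. Hoxc was the largest cluster in every puro library and Hoxa in every Prdm16 library, on both scales.

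**Figure D3:**
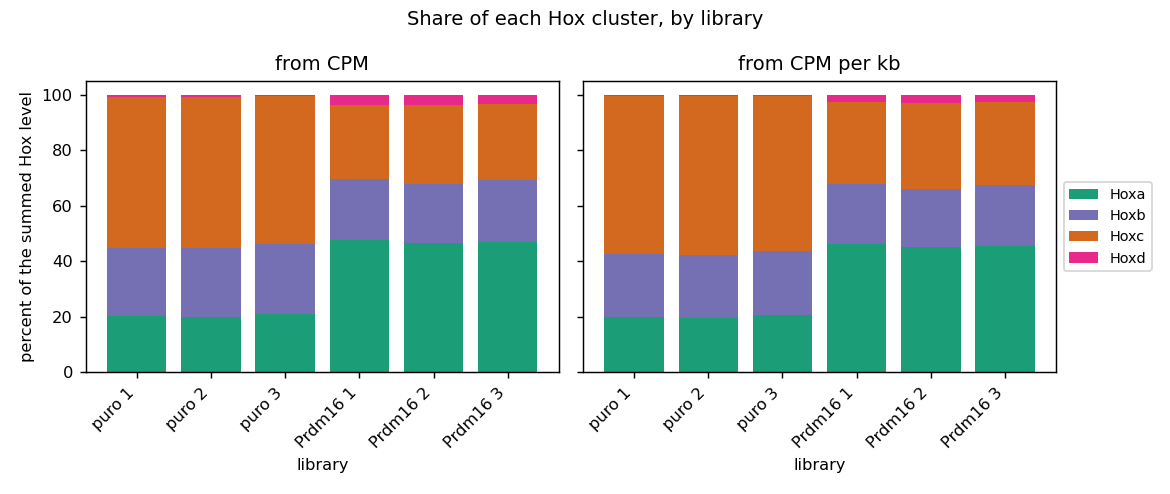
Percent of the summed Hox level in each of the 6 libraries that belongs to each cluster, from CPM (left) and from CPM per kilobase of exon (right). Hoxa goes from a smaller share than Hoxb in puro libraries to the largest share in Prdm16 libraries, while Hoxc goes from at least 53.1% to at most 28.7% of the CPM.

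Paralog groups mixed these opposite changes. Of the 10 paralog groups with more than 1 tested gene, 8 had more than 1 gene past the threshold, and in 7 of those 8 the genes went in both directions. The exception was group 4, where Hoxa4 and Hoxd4 rose and Hoxb4 and Hoxc4 did not pass. In group 9, the one with 4 called genes, Hoxa9 and Hoxd9 rose while Hoxb9 and Hoxc9 fell.

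The sums by paralog group split into 3 kinds. The sum was higher in groups 3, 4, 5, 7 and 10, with ratios of 1.24, 1.31, 1.73, 1.58 and 1.72. Group 5, for instance, went from 45.8, 45.5 and 44.5 CPM to 79.8, 78.0 and 76.6 CPM, and group 10 from 27.8, 29.0 and 27.5 CPM to 46.9, 48.9 and 48.9 CPM. In each of these groups a Hoxa gene rose, and the groups of libraries did not overlap. The sum was lower in groups 6, 8, 9, 11, 12 and 13, with ratios of 0.494, 0.473, 0.812, 0.218, 0.149 and 0.419. Group 6, which held the largest sum in both groups of libraries, went from 168, 165 and 164 CPM to 82.5, 81.1 and 81.9 CPM. Group 13 went from 38.2, 39.0 and 39.2 CPM to 16.7, 16.4 and 15.7 CPM, and groups 11 and 12 reached at most 1.31 CPM in any library. In group 2 the sums overlapped, with a ratio of 0.995. That near-equal sum (27.1, 26.9 and 28.5 against 27.9, 26.5 and 27.7 CPM) held a rise of Hoxa2 beside a fall of Hoxb2.

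**Figure D4:**
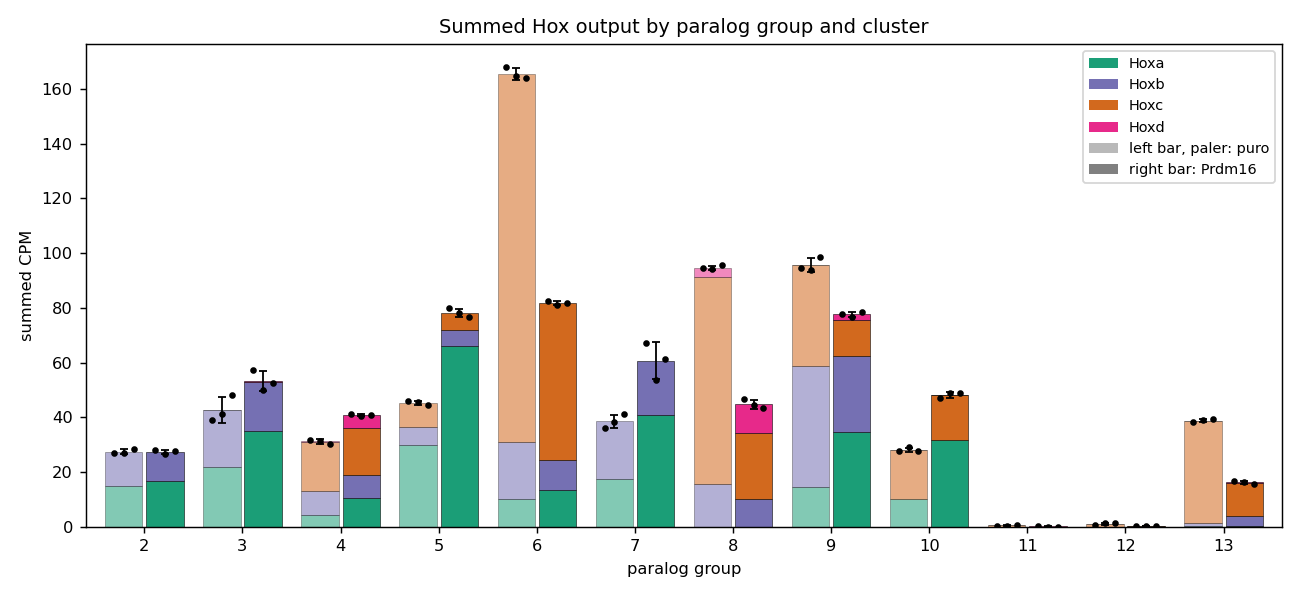
Summed CPM of paralog groups 2 to 13, split by cluster, with the puro mean as the paler left bar and the Prdm16 mean as the right bar. Points are the 3 libraries and error bars their SD. Groups 6, 8 and 13 lose most of their Hoxc part, and groups 5, 7 and 10 gain a larger Hoxa part.

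The genes were also summed by position along the clusters. Anterior genes (groups 1 to 3) summed to 67.5, 69.1 and 78.1 CPM in puro and 86.3, 77.9 and 81.6 CPM in Prdm16 libraries, which overlapped. Per kilobase these anterior sums just failed to overlap, at 29.72, 29.96 and 33.62 against 36.92, 33.63 and 35.13. Central genes (groups 4 to 8) were lower, at 374 to 376 CPM in puro and 298 to 317 CPM in Prdm16 libraries (ratio 0.817). Posterior genes (groups 9 to 13) were lower too, at 162 to 167 and 142 to 143 CPM (ratio 0.868), and neither sum overlapped between the groups. Within Hoxc both the central and the posterior sum were lower, from means of 237 and 93.7 CPM to 105 and 42.1 CPM.

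Within several paralog groups the shares of the clusters moved. Shares here are of the CPM per kilobase of the group and are means of 3 libraries. In group 9 Hoxa9 went from 12.1% to 38.2% and Hoxd9 from 0.0883% to 3.39%, while Hoxc9 went from 41.7% to 19.8% and Hoxb9 from 46.1% to 38.6%. In group 10 Hoxa10 went from 25.8% to 53.4% and overtook Hoxc10, which went from 74.2% to 46.5% with no called change of its own. Hoxa7 went from 30.2% to 51.5% of group 7, the rest being Hoxb7.
Hoxc genes kept the largest share of groups 6, 8 and 13. Hoxc6 went from 79.2% to 63.6% of group 6, Hoxc8 from 84.9% to 62.9% of group 8 and Hoxc13 from 96.0% to 72.7% of group 13. In these groups the largest gains in share were those of Hoxa6 (10.8% to 26.8%), Hoxd8 (2.54% to 18.7%) and Hoxb13 (3.59% to 24.8%). A share can also grow because another member falls. Hoxb8 went from 12.5% to 18.4% of group 8 although its own level fell. In group 4 Hoxd4 went from 0.447% to 10.3%.

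The order of the genes by level per kilobase was led by Hoxc6 in both groups. In puro libraries Hoxc6 stood at 85.1 ± 2.01 CPM per kilobase (SD, n = 3) and Hoxc8 at 40.5 ± 0.0927, each clear of the next gene. Below them Hoxb9 at 17.2, Hoxb7 at 16.2, Hoxa5 at 15.9, Hoxc9 at 15.5 and Hoxc13 at 15.2 formed a run in which each gene overlapped the next. With Prdm16, Hoxc6 at 36.4 ± 0.771 and Hoxa5 at 35.1 ± 1.07 overlapped. Hoxa7 at 16.4, Hoxb7 and Hoxa6 both at 15.4, Hoxa3 at 13.5 and Hoxc8 at 13 followed, each overlapping the next. The rank of a gene moved by at most 3 places in puro and 2 places in Prdm16 libraries when the longest transcript replaced merged exons.

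Noncoding RNAs of the clusters were mostly too low to test. Of the 17 listed that the table held, 3 were tested, 1 rose, 1 fell and 1 did not pass. Among all tested genes 37.5% rose and 38.0% fell. Mira (Mistral), transcribed between Hoxa6 and Hoxa7, rose from 22.8, 24.0 and 22.2 CPM to 60.1, 63.8 and 66.2 CPM (log2 fold change 1.46 ± 0.05, adjusted p = 5.11e-10). Its RefSeq span covers 31.8% of the Hoxa7 exon bases, and the antisense gene Hoxaas3, which did not pass (adjusted p = 0.671), covers 23.3%, so reads of Hoxa7 and Mira cannot be told apart there. Hotair, the RNA of the Hoxc cluster between Hoxc11 and Hoxc12, went from 12, 11 and 15 counts to 0, 1 and 7 counts (ratio over the groups 4.66, 95% counting interval 2.14 to 11.6, adjusted p = 0.00999). Its direction was that of its Hox neighbours, with Prdm16 replicate 3 holding most of the remaining reads. Hotair passed the count filter only through the puro libraries, as Hoxc11 and Hoxc12 did. Its adjusted p and the shared direction are therefore no separate support for a fall. Hottip, at the far end of Hoxa, held 0 and 3 counts.

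Genes next to the clusters changed in both directions. Of 27 tested flanking genes 12 rose, 11 fell and 4 did not pass, with a median log2 fold change of 0.06. Beside Hoxa 2 of 5 rose and 1 fell, beside Hoxb 3 of 8 rose and 4 fell, beside Hoxc 1 of 7 rose and 5 fell, and beside Hoxd 6 of 7 rose and 1 fell. Such small counts stand against a background of 37.5% risen and 38.0% fallen genes. On either side of Hoxa, Skap2 rose (0.47 ± 0.04) while Hibadh did not pass (−0.09 ± 0.04), and Jazf1, a zinc finger gene further out, rose from 6.25 ± 0.460 to 16.1 ± 0.522 CPM. Beside Hoxb, the adaptor gene Skap1 fell from 91 to 8 counts (−3.42 ± 0.38) and Ttll6, next to Hoxb13, rose from 23 to 84 counts (1.88 ± 0.31). Skap1 passed the count filter only through the puro libraries and Ttll6 only through the Prdm16 libraries, so their calls are no separate support. Beside Hoxc, Smug1 (−0.25 ± 0.05) and Calcoco1 (−0.49 ± 0.03) fell, less than most Hoxc genes. Further out, Atf7 (−0.80 ± 0.05) and Npff (−1.05 ± 0.15) fell more, while Hnrnpa1 rose (0.33 ± 0.03) and Cbx5 did not pass. Beside Hoxd, Mtx2 rose by 0.67 ± 0.04 and Lnp fell by 0.12 ± 0.05, while Chn1, further out, rose from 0.751 ± 0.181 to 6.97 ± 0.431 CPM.

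**Figure D5:**
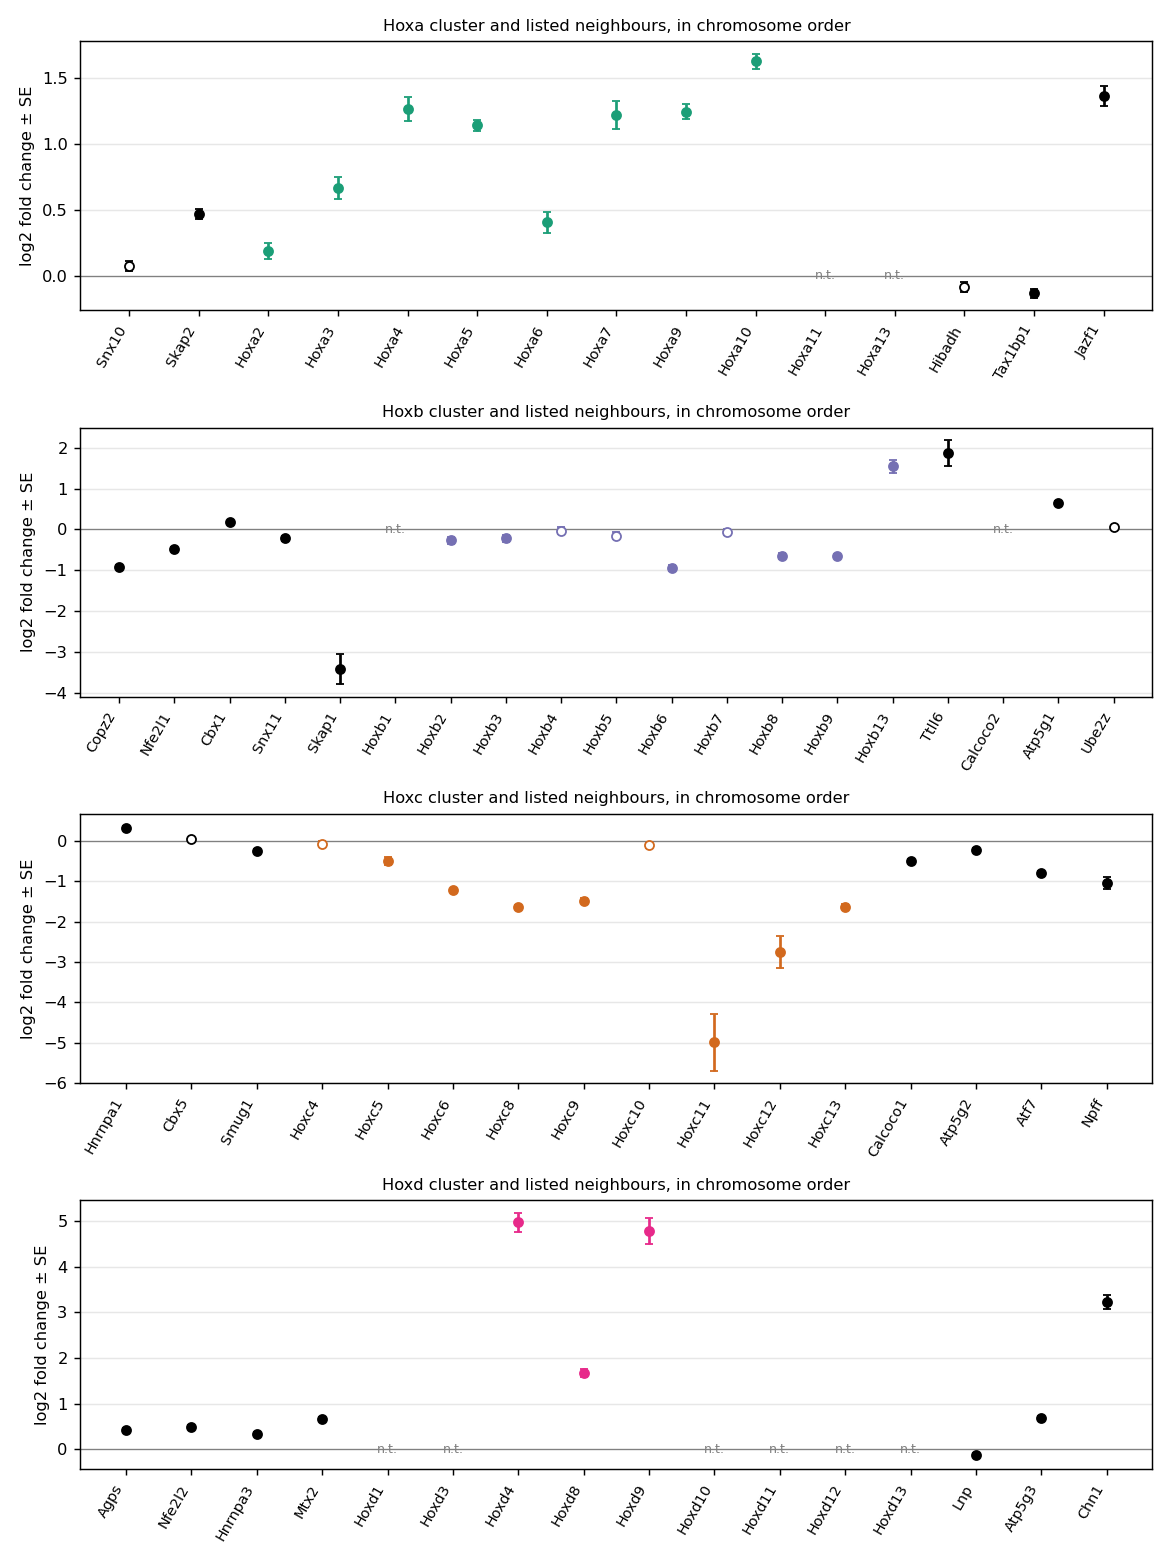
Log2 fold change (± SE) of the tested Hox genes (coloured) and listed flanking genes (black) in the order in which they lie on the chromosome, from the paralog 1 side to the paralog 13 side of each cluster, with equal spacing. Open circles did not pass the adjusted p threshold and n.t. marks untested genes. The risen Hoxa genes run without a break from Hoxa2 to Hoxa10, and Hoxb13 and Ttll6 both rise at the end of Hoxb. Ttll6 passed the count filter only through the Prdm16 libraries.

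Hox proteins bind DNA with TALE homeodomain partners of the Pbx, Meis and Pknox families. Of the 9 genes 4 rose, 4 fell and 1 did not pass, with a median log2 fold change of 0.09. These counts lie near the background, in which 37.5% of all tested genes rose and 38.0% fell. The smallest p belonged to Meis3, which fell from 18.4 ± 0.649 to 1.79 ± 0.0483 CPM (−3.37 ± 0.09, adjusted p = 4.16e-11). Pknox2 fell by 0.93 ± 0.04 and Pknox1 rose by 0.60 ± 0.05.

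Polycomb genes, whose products repress Hox clusters, all passed the count filter. Of 31 tested 16 rose, 6 fell and 9 did not pass (median 0.11), against 37.5% higher and 38.0% lower among all tested genes. The rises were led by Pcgf6 (0.99 ± 0.05) and Cbx2 (0.67 ± 0.05), subunits of the first Polycomb complex, and Ezh2, the methyltransferase of the second, rose by 0.38 ± 0.04. Yaf2, another subunit of the first complex, fell by 0.66 ± 0.04. Among 16 tested trithorax and H3K27 demethylase genes 8 rose, 2 fell and 6 did not pass (median 0.13), beside the same background of 37.5% and 38.0%. Men1 rose by 0.89 ± 0.05 and Wdr5 by 0.65 ± 0.04, both partners of the methyltransferase Kmt2a, which fell by 0.34 ± 0.04.

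Of 15 listed regulators of Hox genes and ParaHox genes, 5 were tested. The insulator protein gene Ctcf rose by 0.78 ± 0.04, Nr6a1, a nuclear receptor of trunk Hox regulation, by 0.73 ± 0.08 and Gmnn by 0.51 ± 0.05. Gdf11, the growth factor that starts the posterior programme in embryos, fell by 0.23 ± 0.05, and Yy1 did not pass. Cdx2, Cdx4, Gsx1, Gsx2, Pdx1, Evx1 and Evx2 had no count in any library, and Cdx1 went from 31 counts to 1. The genes that lie next to Hoxa13 and Hoxd13, Evx1 and Evx2, were thus silent at this depth.

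Of 14 tested retinoic acid genes 6 rose, 7 fell and 1 did not pass (median −0.24), a split near that of all tested genes (37.5% higher, 38.0% lower). Among the enzymes that make retinoic acid, Aldh1a1 rose from 6.89 ± 0.982 to 33.0 ± 0.724 CPM (2.25 ± 0.08) and Rdh10 by 1.03 ± 0.06, while Aldh1a2 fell from 266 counts over the puro group to 4. The receptor gene Rarb rose from 0.899 ± 0.115 to 4.88 ± 0.539 CPM (2.45 ± 0.15). Of the degrading enzymes, Cyp26a1 went from 68 to 6 counts and Cyp26c1 from 84 to 4, and Cyp26b1 did not pass (adjusted p = 0.0512). Aldh1a2, Cyp26a1 and Cyp26c1 passed the count filter only through the puro libraries, so their calls are no separate support for a fall.

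Other positional transcription factors of limb and trunk mesenchyme changed in both directions as well. Of 20 tested 7 rose, 10 fell and 3 did not pass (median −0.46), where the background was 37.5% higher and 38.0% lower. Pax9 rose from 29 to 1350 counts (5.55 ± 0.13, adjusted p = 1.69e-11) and Msx2 by 2.96 ± 0.13. Pax9 passed the count filter only through the Prdm16 libraries, so its adjusted p is no separate support for a rise. Tbx18 fell from 49.8 ± 0.730 to 18.5 ± 0.965 CPM and En1 from 18.1 ± 1.67 to 3.47 ± 0.298 CPM. The forelimb gene Tbx5 and the hindlimb gene Pitx1 had no count in any library, and the hindlimb gene Tbx4 had 1.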

How the data were processed

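The values were whole-number counts per gene symbol, deposited by the authors in 1 table with the 6 libraries as columns and no normalization. RNA extraction used Trizol with a PureLink kit and library preparation a TruSeq RNA kit, per the labels. The build mm9 and the tools STAR, Subread and featureCounts are named in the submitters' processing notes, without versions. Whether counting used strand, and which gene annotation it used, is not stated in the sources used here.

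The groups were tested in edgeR 4.0.16 (R 4.3.3). The filter filterByExpr retained 13805 genes and dropped 10392 with 0.0297% of all counts. Scaling was by TMM, the test was the quasi-likelihood F test (two-sided), and p-values were adjusted by Benjamini-Hochberg over the retained genes with a threshold of 0.05. Standard errors were the log2 fold change divided by the root of the F statistic. Sums, shares and medians over genes were given without a test. The analysis was tested on simulated data with known fold changes. DESeq2 1.42.0 and limma 3.58.1 were alternatives. Replicates of a group differed by more than sampling noise (mean chi-square of 2.08 to 8.85 per gene), and the common biological coefficient of variation was 4.78%.

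Exon lengths and gene order came from GENCODE vM21 and promoter windows from RefSeq, both on GRCm38, a build other than the authors'. Protein sequences were not used here. The values of 1 Hox gene, and of 1 gene of the other lists, are not reported here, while counts and sums include them. Of the other Hox genes, those with a mean of at least 1 CPM in either group are given library by library and the others by counts, and of the other lists the 2 to 4 genes with the smallest p were to be named, further names being chosen after their values were seen. The members and lists were chosen with earlier results of these data known.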

Additional observations from a re-analysis of the deposited data

How the results depend on the processing

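The counts of risen and fallen Hox genes stayed at 11 to 14 and 10 to 12 under the 16 alternatives that were run, which changed the scaling, the filter, the test or the threshold or left out a library. No paired design is stated, and same-numbered libraries did not deviate together (correlations of −0.164, 0.0986 and −0.0674). With the replicate number as a replicate block 12 Hox genes rose and 12 fell, as without it, and 5017 and 5072 of all genes. Of 457 gene values under alternatives 446 kept direction and call. With 1 library left out, the log2 fold change ranged from −0.0961 to 0.0426 for Hoxb4 and from −0.119 to 0.000296 for Hoxb7, and the log2 ratio of the summed CPM from −0.0219 to 0.0187 for paralog group 2. At an adjusted p of 0.01 the calls of Hoxa2, Hoxb2 and Hoxb3 were lost. Per kilobase the log2 ratio of the sums was 0.913 for Hoxa, −1.19 for Hoxc, 0.481, 0.850, −0.906, 0.452, −1.21, −0.408 and 0.573 for paralog groups 4 to 10, since length weights the members differently. Upper-quartile scaling gave −1.19 for Hoxc and −1.03 for group 6. Depth limits the 9 untested genes, which had at most 46 counts in a group.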
